A study of Mus musculus with 4 samples.

Results

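H/ACA box small nucleolar RNAs (snoRNAs), the products of the Snora genes, were examined in small RNA libraries of mouse sperm from 2 kinds of breeding. All genes whose symbol begins with Snora were taken, whatever their level: 34 such genes had a value, among 16781 RefSeq genes matched to a symbol, and each was represented by 1 RefSeq transcript. The reference gene table holds 39 Snora genes, and Snora15, Snora19, Snora35, Snora57 and Snora5c had no matched row. The sperm came from the cauda epididymis, where sperm are stored, of adult C57BL/6 mice bred in an extra cross to wildtype or in the original cross. Each group had 2 mice and each mouse gave 1 library, so p-values measure the spread between these mice alone. The study was about epigenetic silencing at LoxP, the recognition sequence of Cre recombinase, but the labels do not say which cross is the susceptible one, nor which alleles the mice carried. RNA was extracted after a wash in buffered saline, size-selected on a gel, made into libraries with the TruSeq small RNA kit and sequenced in 1 lane. In such bulk libraries fewer cells of a type and less RNA per cell cannot be told apart.

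An H/ACA snoRNA folds into a pair of hairpins joined by a hinge, which carries the H box, and ends in a short tail with the ACA box. Each hairpin can hold a pocket that base-pairs with ribosomal or spliceosomal RNA and places a uridine in the active site of dyskerin, which turns it into pseudouridine with the help of Nop10, Nhp2 and Gar1. In mammals most of these RNAs are not transcribed on their own but trimmed out of introns of host genes, many of which encode ribosomal proteins. The C/D box snoRNAs, which guide ribose methylation with fibrillarin, are the other large snoRNA family and serve here for comparison.

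The sequences of 5 of the 6 most abundant H/ACA snoRNAs are shown because many of the values below rest on them, and the near-identical pair Snora73a and Snora73b because their reads are hard to assign. They are the GENCODE transcripts of GRCm38, printed 5′ to 3′ as DNA. The levels are of RefSeq transcripts, which for Snora44, Snora21 and Snora41 are shorter, at 117, 128 and 113 bases against 129, 137 and 132. Capitals mark letters matching the H box, ANANNA, and the ACA box.

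Snora16a, chr4:132309465-132309600, plus strand: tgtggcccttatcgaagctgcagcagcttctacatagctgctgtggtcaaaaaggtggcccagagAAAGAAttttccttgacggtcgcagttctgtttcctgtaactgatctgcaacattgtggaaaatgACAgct
Snora44, chr4:132309941-132310069, plus strand: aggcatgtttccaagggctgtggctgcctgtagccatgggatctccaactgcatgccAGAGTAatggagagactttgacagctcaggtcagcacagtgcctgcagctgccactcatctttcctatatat
Snora26, chr5:74093530-74093650, plus strand: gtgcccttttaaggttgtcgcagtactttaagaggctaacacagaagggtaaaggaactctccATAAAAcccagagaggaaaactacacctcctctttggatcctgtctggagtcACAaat
Snora21, chr11:97781639-97781775, minus strand: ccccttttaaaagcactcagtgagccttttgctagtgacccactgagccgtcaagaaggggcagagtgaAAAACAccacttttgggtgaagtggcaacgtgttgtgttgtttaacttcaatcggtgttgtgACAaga
Snora41, chr1:63179004-63179135, plus strand: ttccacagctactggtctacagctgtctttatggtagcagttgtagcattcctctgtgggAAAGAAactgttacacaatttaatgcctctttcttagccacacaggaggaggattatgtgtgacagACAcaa
Snora73a, chr4:132352775-132352979, minus strand: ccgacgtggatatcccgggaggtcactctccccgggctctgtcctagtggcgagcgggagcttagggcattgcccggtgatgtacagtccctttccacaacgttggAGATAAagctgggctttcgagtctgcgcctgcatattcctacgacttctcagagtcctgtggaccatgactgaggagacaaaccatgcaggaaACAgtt
Snora73b, chr4:132352322-132352526, minus strand: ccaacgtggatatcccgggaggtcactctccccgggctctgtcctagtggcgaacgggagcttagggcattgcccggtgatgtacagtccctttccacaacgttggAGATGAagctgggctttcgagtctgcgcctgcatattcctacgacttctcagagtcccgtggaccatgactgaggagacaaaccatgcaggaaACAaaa

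The ACA box was looked for in the last 8 bases, preferring the place with 3 bases after it, and ANANNA between 30% and 70% of the length, both on the sense strand only. Where several ANANNA matches were present, the one with the most unpaired bases in a predicted fold was marked. ACA was found in 32 of 34 H/ACA snoRNAs (94.1%), in 28 of them with exactly 3 bases after it, against 7 of 98 C/D transcripts (7.14%). Snora44 and Snora81 were the members with no ACA in that window. ANANNA was found in 32 of 34 as well, all but Snora65 and Snora78, but also in 58 of 98 C/D transcripts (59.2%), so these letters alone separate the families less than ACA does. A match is a description of the letters and not evidence of a working box. The 34 GENCODE sequences ran from 121 to 205 bases, with a median of 132.5, and their GC content from 38.0% to 64.1%, with a median of 48.1%. The members' RefSeq transcripts, used for levels per length, ran from 61 to 205 bases, with a median of 122. Snora73a and Snora73b, both 205 bases, differed at 7 positions counted from the 5′ end (G3A, G54A, A111G, T164C, G203A, T204A and T205A, with the base of Snora73a first) and were 96.6% identical.

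Levels are in RPM, read numbers that the authors scaled to one library size, and they were low. One read was worth 0.642 and 0.238 RPM in extra-cross replicates 1 and 2, against 1.58 and 0.561 RPM in original-cross replicates 1 and 2. A value of 0 therefore allowed levels as high as 1.93 and 0.713 RPM in the extra cross, against 4.74 and 1.68 RPM in the original cross, taking 3 reads as the limit. Of the 34 members, 24 and 33 were above 0 in the extra-cross libraries, against 21 and 28 in the original-cross libraries. The RefSeq values of original-cross replicate 1 had been deposited on a scale 26.2 times lower than the rest of that library and were multiplied by this ratio. A larger ratio could also be read from that column and was tried as an alternative. Sperm markers were scarce in all 4 libraries: 13 of 16 listed genes had a row, and they summed to 8.30 and 7.84 RPM in the extra cross, against 6.32 and 12.7 RPM in the original cross. The protamine gene Prm1, a defining transcript of late sperm cells, had 0.642 and 0.951 RPM in the extra cross, against 0 and 2.24 RPM in the original cross. Summed markers of other cells were more abundant than those of sperm, but a few genes carried much of these sums. The 10 smooth muscle and stroma genes summed to 1110 and 1370 RPM in the extra cross, against 2654 and 3294 RPM in the original cross. Collagen genes led this list, with means of 1007 RPM for Col1a1, 536 RPM for Col1a2 and 409 RPM for Col3a1. The muscle genes Acta2, Tagln, Myh11, Des and Cnn1 had means from 0.679 to 7.64 RPM. The 15 epididymal epithelium genes summed to 351 and 320 RPM in the extra cross, against 166 and 311 RPM in the original cross, and the 9 blood genes to 127 and 77.9 RPM in the extra cross, against 177 and 138 RPM in the original cross. In the blood list, Cd74 and Lyz2 had means of 63.2 and 56.5 RPM, and the other genes means from 0.160 to 3.53 RPM. The part of these cells in the snoRNA levels was not tested.

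On the RPM scale, H/ACA snoRNAs as a family were not separated between the crosses. Their summed level was 149.8 and 129.8 RPM in the extra cross, against 172.9 and 84.5 RPM in the original cross, so that the original-cross libraries held both the highest and the lowest sum. The means were 139.8 ± 14.2 RPM in the extra cross and 129 ± 62.5 RPM in the original cross (SD, n = 2 each). On the log2 scale the difference, extra minus original, was 0.21, with -0.21 between the libraries of replicate 1 and 0.62 between those of replicate 2 (two-sided exact permutation p = 1, where 0.333 is the smallest p that 2 against 2 libraries can give). It was -0.31 without original-cross replicate 2, 0.72 without original-cross replicate 1 and -0.29 with the larger rescaling ratio. With median-ratio scaling it was 0.74, and with RefSeq sums set equal between libraries 0.63, both at an exact permutation p of 0.333. With both of these scalings the groups did not overlap. Counting error on the sums was smaller than the spread within the original cross: the 95% Poisson intervals were 131 to 170 and 119 to 141 RPM in the extra cross, against 141 to 208 and 71.7 to 99.4 RPM in the original cross. The sums stood for 233 and 546 reads in the extra cross, against 109 and 151 reads in the original cross. Intervals here cover counting error only, since the reads carry no molecular identifiers.

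**Figure D1:**
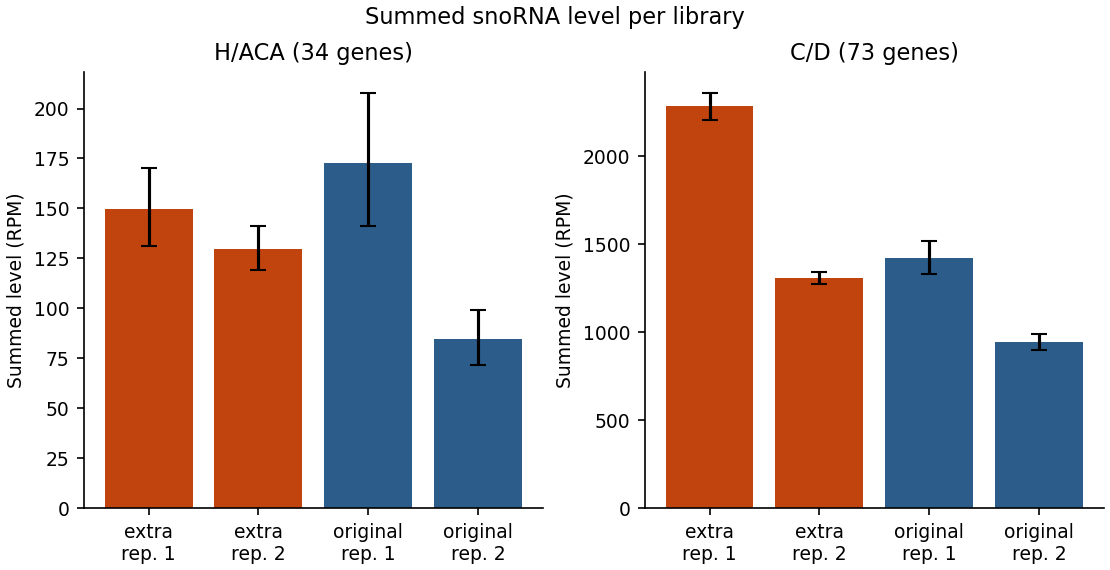
Summed level (RPM) of the 34 H/ACA genes (left) and the 73 C/D genes (right) in each library, on separate axes, with 95% Poisson intervals of the read numbers as error bars. The H/ACA bars of the original cross, at 172.9 and 84.5 RPM, lie above and below those of the extra cross, at 149.8 and 129.8 RPM.

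Measured against the rest of the RefSeq transcripts, the order was different. H/ACA snoRNAs made up 0.114% and 0.0954% of all RefSeq RPM in the extra cross, against 0.0832% and 0.0544% in the original cross, and the groups did not overlap on this measure. The exact permutation p was 0.333, the smallest possible here. This share does not depend on the rescaling of original-cross replicate 1, but it does depend on the other RefSeq genes, whose median log2 difference over the 477 genes with a mean of at least 10 RPM was -0.50. The summed smooth muscle and stroma markers, which belong to that total, were lower in both extra-cross libraries, as given above, and their part in the share was not tested.

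C/D snoRNAs were 8.21 to 15.2 times as abundant in single libraries, or 6.04 to 8.22 times with the most abundant C/D gene, Snord2, left out. The 73 Snord genes with a row summed to 2282 and 1306 RPM in the extra cross, against 1418 and 943 RPM in the original cross, a log2 difference of 0.58 with overlapping groups (exact permutation p = 0.667), and of 0.27 without Snord2. Per kilobase of the family's summed length, H/ACA snoRNAs had 34.2 and 29.6 RPM in the extra cross, against 39.5 and 19.3 RPM in the original cross. C/D snoRNAs had 413 and 237 RPM per kilobase in the extra cross, against 257 and 171 RPM per kilobase in the original cross, so the families stayed apart in all 4 libraries on the scale per length too.

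The share of H/ACA in all snoRNA, a ratio within 1 library that no scaling between libraries changes, was 6.16% and 9.04% in the extra cross, against 10.9% and 8.22% in the original cross. The 95% Wilson intervals were 5.43% to 6.96% and 8.35% to 9.79% in the extra cross, against 9.05% to 12.9% and 7.07% to 9.59% in the original cross. Extra-cross replicate 1 lay below the other libraries, beyond counting error, but 1 C/D gene carried that gap. Snord2 had 1094 and 413 RPM in the extra cross, against 374 and 249 RPM in the original cross, and made up 47.9% of the C/D sum in extra-cross replicate 1 and 26.4% to 31.7% in the other libraries. With Snord2 left out, an alternative chosen after seeing the data, the H/ACA share was 11.2% and 12.7% in the extra cross, against 14.2% and 10.8% in the original cross. The interval of extra-cross replicate 1, 9.90% to 12.6%, then overlapped those of the other 3 libraries. The means were 7.60% ± 2.04 in the extra cross and 9.54% ± 1.87 in the original cross (SD, n = 2 each). The difference of -1.94 percentage points was -4.70 in replicate 1 and 0.82 in replicate 2 and was within the spread of the libraries (exact permutation p = 0.667). Without Snord2 it was -0.58 points (exact permutation p = 1).

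**Figure D2:**
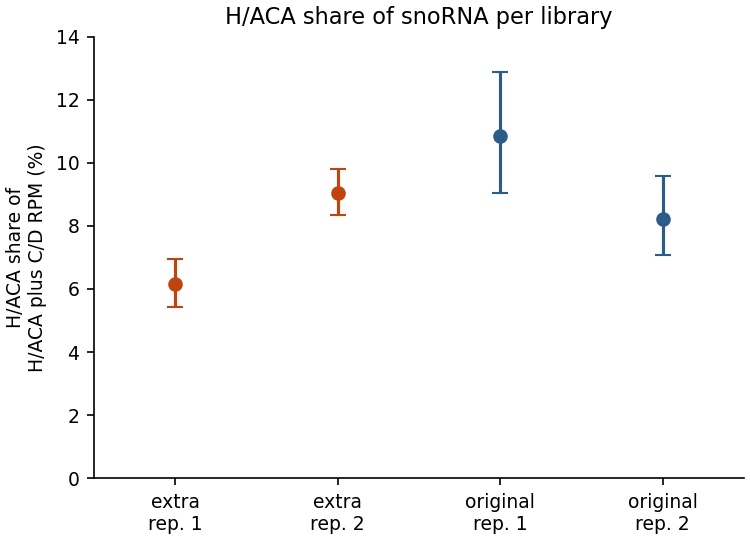
H/ACA share of summed H/ACA and C/D RPM (percent) in each library, with 95% Wilson intervals. Extra-cross replicate 1, at 6.16%, lies below the other libraries, which lie between 8.22% and 10.9%, but it is at 11.2%, against 10.8% to 14.2% in the others, when Snord2 is left out.

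A few members carried most of the family. Snora16a and Snora68 together made up 32.1% of the summed mean level, the top 5 members 56.4% and the top 7 members 68.8%. In single libraries the share of Snora16a and Snora68 was 36.4% and 35.2% in the extra cross, against 32.9% and 17.9% in the original cross, where replicate 2 stood apart. Of the 34 members, 5 had a mean of at least 10 RPM, 18 lay between 1 and 10 RPM and 11 lay below 1 RPM. The order of the members was partly shared between mice, with Spearman correlations of their levels from 0.571 to 0.848 over the 6 pairs of libraries (34 members, which share the scale of each library). The lowest value was between the original-cross mice and the highest between both replicate 2 libraries.

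Snora16a, one of the members encoded in the noncoding host gene Snhg12, was the most abundant member. It had 29.5 and 23.3 RPM in the extra cross, against 26.9 and 7.29 RPM in the original cross. Original-cross replicate 2 was low and the other 3 libraries lay close together. The read numbers were 46 and 98 in the extra cross, against 17 and 13 in the original cross, and the Poisson interval of the lowest library, 3.88 to 12.5 RPM, did not reach those of the others, the lowest of which began at 15.7 RPM. Snora68, a guide for large-subunit rRNA in human cells, had the same shape: 25.04 and 22.4 RPM in the extra cross, against 30.02 and 7.85 RPM in the original cross. It was the highest of all members per length, at 21.8 RPM per 100 bases of its RefSeq transcript on average, followed by Snora16a at 16.0. In neither gene did the crosses separate, since original-cross replicate 1 was as high as the extra-cross libraries.

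Snora44, a guide for small-subunit rRNA in human cells that is encoded in the same host gene as Snora16a, had 19.3 and 8.56 RPM in the extra cross, against 12.6 and 5.61 RPM in the original cross. Here the replicate 1 libraries were the higher ones in both crosses, and within each replicate the extra cross was above the original cross, by 0.57 and 0.53 on the log2 scale. Snora41 was similar, at 14.8 and 7.13 RPM in the extra cross, against 9.48 and 6.17 RPM in the original cross, with log2 differences of 0.59 and 0.18. The 4 libraries of both genes overlapped between crosses.

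Snora26 had 15.7 and 6.90 RPM in the extra cross, against 17.4 and 2.52 RPM in the original cross. Its values followed those of its host Dancr, a long noncoding RNA, at 15.7 and 7.13 RPM in the extra cross, against 17.4 and 3.65 RPM in the original cross. The sequence of Snora26 lies within a Dancr transcript, and the reads of one cannot be told from those of the other. The same holds for Snora24, whose sequence lies within Snhg8. Snora24, known in human cells as a guide for small-subunit rRNA, had 3.85 and 3.69 RPM in the extra cross, against 4.74 and 3.09 RPM in the original cross. Snhg8 had 3.85 and 3.92 RPM in the extra cross, against 4.74 and 3.65 RPM in the original cross.

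Snora21, which in human cells guides pseudouridylation of large-subunit rRNA, had the widest spread of the abundant members. It had 7.70 and 4.99 RPM in the extra cross, against 26.9 and 2.24 RPM in the original cross, so the original cross held both extremes. These values stood for 12 and 21 reads in the extra cross, against 17 and 4 reads in the original cross. The Poisson intervals of the original-cross libraries, 15.7 to 43.0 RPM and 0.611 to 5.75 RPM, did not meet, so the difference between those mice exceeded counting error.

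**Figure D3:**
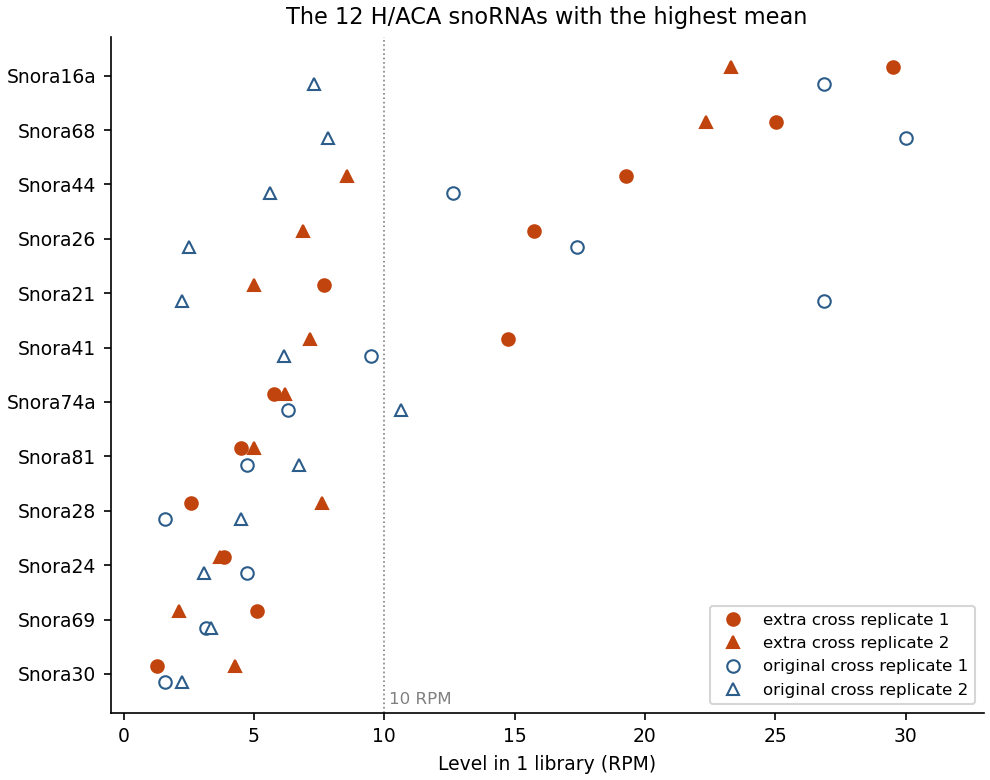
Level (RPM) of the 12 most abundant H/ACA snoRNAs, 1 point per library, with filled marks for the extra cross and open marks for the original cross. The dotted line marks the 10 RPM minimum of the test. Snora21 reached 26.9 RPM in original-cross replicate 1 and 2.24 RPM in original-cross replicate 2.

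Among the members just under 10 RPM, Snora74a was the one with both extra-cross libraries below both original-cross libraries, at 5.78 and 6.18 RPM in the extra cross, against 6.32 and 10.7 RPM in the original cross. The gap rested on 4 reads in original-cross replicate 1, whose interval of 1.72 to 16.2 RPM covers all 4 values. Snora81 had 4.49 and 4.99 RPM in the extra cross, against 4.74 and 6.73 RPM in the original cross. Snora28, which in human cells guides pseudouridylation of small-subunit rRNA, had 2.57 and 7.61 RPM in the extra cross, against 1.58 and 4.49 RPM in the original cross. For Snora28 the replicate 2 library was the higher one in both crosses, the opposite of Snora44. Snora69 had 5.14 and 2.14 RPM in the extra cross, against 3.16 and 3.37 RPM in the original cross. Snora30 had 1.28 and 4.28 RPM in the extra cross, against 1.58 and 2.24 RPM in the original cross.

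Snora73a and Snora73b, the U17 snoRNAs, are known from yeast and vertebrates to serve in cleavage of the rRNA precursor and not in pseudouridylation. Snora73a had 0 and 3.21 RPM in the extra cross, against 1.58 and 3.37 RPM in the original cross. Snora73b had 0 and 1.07 RPM in the extra cross, against 3.16 and 2.81 RPM in the original cross, with both extra-cross libraries below both original-cross libraries. Some of their values were fractions of a read, and the split of reads between these near-identical copies is uncertain. Both were at 0 in extra-cross replicate 1, which allows up to 1.93 RPM each. Snora70, another member with fractional values, had 1.16 and 0.999 RPM in the extra cross, against 0.632 and 0.898 RPM in the original cross, all worth fewer than 5 reads.

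Of the remaining members, 9 (Snora3, Snora20, Snora31, Snora61, Snora47, Snora78, Snora17, Snora62 and Snora36b) had means between 1.01 and 2.01 RPM. Snora47 had 0 and 3.804 RPM in the extra cross, against 3.16 and 0.561 RPM in the original cross, and Snora61 had 0 and 1.19 RPM in the extra cross, against 4.74 and 0.561 RPM in the original cross. Both were thus above 0 in extra-cross replicate 2 and at 0 in extra-cross replicate 1, and higher in replicate 1 of the original cross than in replicate 2. Below 1 RPM, Snora64 had 0.642 and 1.90 RPM in the extra cross, against 0 and 0.561 RPM in the original cross. Snora65 had 0.642 and 1.66 RPM in the extra cross, against 0 and 0.561 RPM in the original cross, and Snora33 had 1.28 and 0.951 RPM in the extra cross, against 0 and 0.561 RPM in the original cross. For these 3 genes the value of 0 in original-cross replicate 1 allows up to 4.74 RPM, so no difference was detectable at this depth. Snora7a was above 0 in 3 libraries and Snora23 and Snora34 in 2. Snora2b, Snora43, Snora75 and Snora52 were above 0 in 1 library, with the last 3 seen in the deepest, extra-cross replicate 2, at 0.238 to 0.476 RPM.

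No H/ACA snoRNA passed the test between crosses. In limma on log2(RPM + 1) over the 477 RefSeq genes with a mean of at least 10 RPM, 0 genes passed a Benjamini-Hochberg adjusted p of 0.05 (0% called), and 114 (23.9%) had an unadjusted p below 0.05. Snora16a, Snora68, Snora44, Snora26 and Snora21 entered this test, and 0 of these 5 passed at either threshold. Voom weights gave 0 calls among all genes too, with 84 genes at an unadjusted p below 0.05. Snora16a had a log2 difference of 0.84 ± 0.51 (SE; limma adjusted p = 0.314) and Snora68 one of 0.57 ± 0.51 (adjusted p = 0.458). Snora44 had 0.55 ± 0.54 (adjusted p = 0.488), Snora26 0.51 ± 0.82 (adjusted p = 0.678) and Snora21 -0.40 ± 1.03 (adjusted p = 0.801). The fold change is on the log2(RPM + 1) scale, which understates changes of low genes.

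The differences of these 5 depended on single original-cross libraries. Without original-cross replicate 1, the log2 differences of Snora16a and Snora68 were 1.72 and 1.48. Without original-cross replicate 2 the differences of Snora16a and Snora68 were -0.03 and -0.33, that of Snora26 -0.68 and that of Snora21 -1.95. In that fit 41 of 465 genes passed (8.82%). Each of these fits leaves 1 original-cross mouse and takes its spread to be that of the other mice. For the members, only the differences are therefore given here.

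Set beside the other genes, the 5 tested members had a median log2 difference of 0.55, with -0.14 in replicate 1 and 1.16 in replicate 2, against -0.50 over all 477 genes, with -0.62 and -0.37, and 0.42 over the 26 tested C/D genes. The scaling between libraries moved all of these: with median-ratio factors the values were 1.06 for the members, 0.02 for all genes and 0.92 for C/D genes, and with the larger rescaling ratio 0.06, -1.03 and -0.06. A gene could pass the 10 RPM minimum through 1 cross alone, and 29 of 34 members did not pass it. With the minimum lowered to 1 RPM, 23 members were among 6717 genes and 0 of these genes passed (593, or 8.83%, at an unadjusted p below 0.05). The median over these 23 members was 0.04, with 12 positive, against -0.38 over all genes and 0.46 over 59 C/D genes. The member with an unadjusted p below 0.05 was Snora73b, at -1.47 ± 0.59 (limma adjusted p = 0.559).

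The members were also counted by their direction within each replicate. Over all 34, 9 were higher in the extra cross in both replicates (12% of all 16781 genes were) and 4 were lower in both (26%). Among the 5 tested members 2 (Snora16a and Snora44) were higher in both (9.22% of the 477 genes) and 0 were lower in both (71.5%). Among the 23 members that averaged 1 RPM or more, 5 were higher in both (Snora16a, Snora44, Snora41, Snora28 and Snora78; 10.5% of all 6717 genes), and 4 were lower in both (Snora74a, Snora81, Snora73a and Snora73b; 48.8%). Of the 59 C/D genes at this level, 32 were higher and 8 lower in both. With the groups required not to overlap, 0 of the 5 tested members had both extra-cross libraries above (4.4% of genes) or below (54.1%) both original-cross libraries. Of the 23 members that averaged 1 RPM or more, 0 had both extra-cross libraries above both original-cross libraries (5.94% of genes), and Snora74a and Snora73b had both below (36.5%). Over all 34 members 4 lay above (Snora70, Snora64, Snora65 and Snora33; 9.38%) and 2 below (19.4%).

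**Figure D4:**
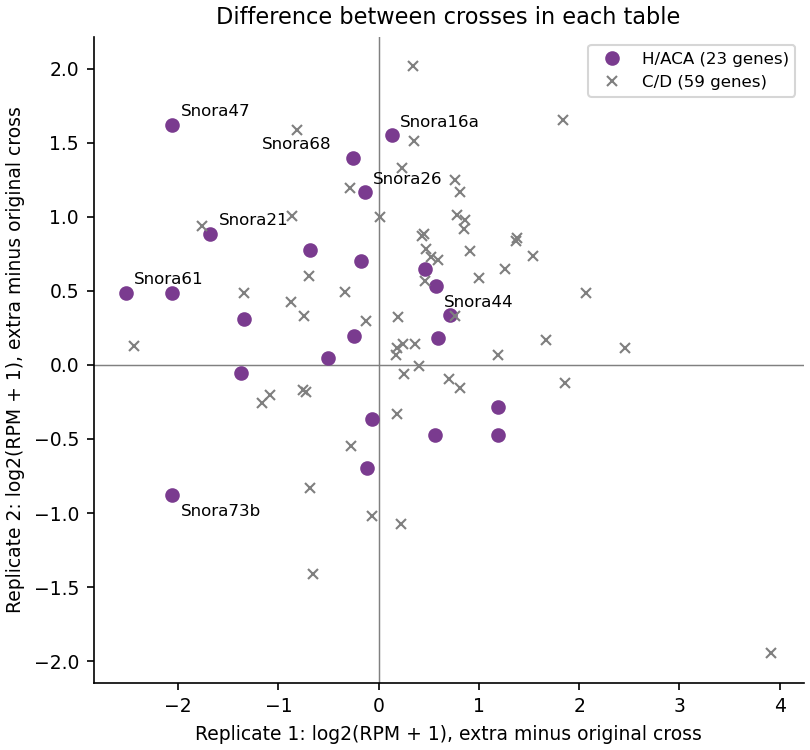
Log2 difference, extra minus original cross, of log2(RPM + 1) within replicate 1 (horizontal axis) and within replicate 2 (vertical axis) for 23 H/ACA and 59 C/D genes with a mean of at least 1 RPM. Of the H/ACA genes, 5 lie in the upper right part (higher in the extra cross in both) and 4 in the lower left, with Snora73b at -2.06 and -0.88.

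The genes that carry the H/ACA snoRNAs were measured alongside them. In the GENCODE annotation of GRCm38 27 distinct host genes with a row held members within their introns or transcripts. Of the 23 hosts that averaged 1 RPM or more, 15 were lower in the extra cross in both replicates and 0 were higher in both, where 48.8% and 10.5% of all 6717 genes at that level were. In the test, 0 of the 7 hosts that reached the 10 RPM minimum passed (median log2 difference -0.83). The most abundant was Tpt1, which encodes a translationally controlled protein and holds Snora31, at 23.8 and 22.1 RPM in the extra cross, against 31.6 and 30.3 RPM in the original cross. Rpsa, a ribosomal protein gene with Snora62, had 14.1 and 17.7 RPM in the extra cross, against 28.4 and 29.5 RPM in the original cross. Rpl10, a ribosomal protein gene with Snora70, had 12.8 and 14.7 RPM in the extra cross, against 24.5 and 28.1 RPM in the original cross. In these 3 hosts both extra-cross libraries lay below both original-cross libraries, as they did in Srcap, a chromatin remodeller gene with Snora30 (8.67 and 9.47 RPM in the extra cross, against 15.01 and 18.0 RPM in the original cross). They did so too in the ribosomal protein genes Rps12, with Snora33 (3.85 and 7.49 RPM in the extra cross, against 19.0 and 16.8 RPM in the original cross), and Rps2, with Snora64 (5.72 and 9.73 RPM in the extra cross, against 18.8 and 12.5 RPM in the original cross). Such a separation was common at this level, with both extra-cross libraries below in 54.1% of the 477 genes. The snoRNAs of these 6 hosts did not show the same separation: Snora31 had 1.28 and 2.14 RPM in the extra cross, against 0 and 3.37 RPM in the original cross, and Snora62 had 0 and 1.19 RPM in the extra cross, against 3.16 and 0.561 RPM in the original cross. Snora30 overlapped between the crosses too, and for Snora70, Snora33 and Snora64 the extra-cross values were the higher ones, at a few reads each.

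Per length, most snoRNAs exceeded their hosts. Of 27 members with a host whose reads are separate, 20 were above the host in mean RPM per 100 bases, with a median ratio of 7.79, and 11 were over 10 times above it. Some abundant members were among these: Snora21 stood at 27.6 times Rpl23 and Snora41 at 16.5 times Eef1b2, hosts that encode a ribosomal protein and a translation elongation factor. Snora81 stood at 13.7 times Eif4a2, a translation initiation helicase. Snora16a and Snora44 share the noncoding host Snhg12, which had at most 1 read in any library. It was at 0 and 0.238 RPM in the extra cross, against 0 and 0.561 RPM in the original cross. The sequence of Snora61 also lies within Snhg12, but no host was assigned to Snora61, so it is not among the 27 members. At the other end, Snora70 was at 0.285 times Rpl10, Snora33 at 0.330 times Rps12 and Snora52 at 0.124 times Rplp2. The size selection of the RNA bears on such ratios, and its part was not tested. Which stretch of each snoRNA the reads covered was not analysed here.

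**Figure D5:**
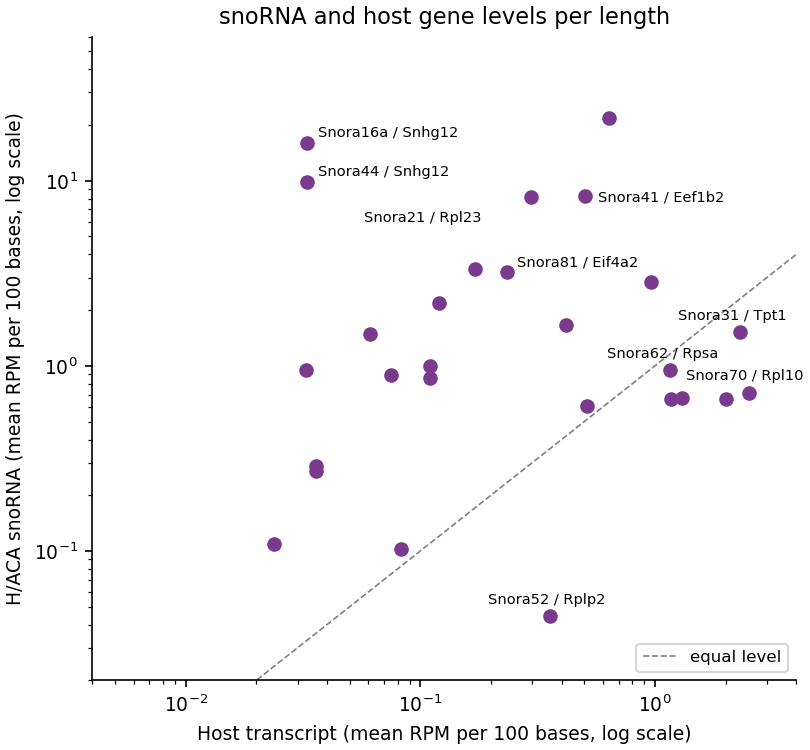
Mean level over the 4 libraries (RPM per 100 bases, log scales) of each H/ACA snoRNA against its host transcript, for the members whose host had its own row and separate reads. The dashed line marks equal levels, and 20 of 27 members lie above it, with Snora21 at 27.6 times Rpl23 and Snora52 at 0.124 times Rplp2.

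The protein partners of H/ACA snoRNAs were barely represented. Of 12 listed genes of the particle and its assembly, 11 had a row, none reached a mean of 10 RPM and together they summed to 9.07 and 5.79 RPM in the extra cross, against 13.3 and 5.55 RPM in the original cross. Nop10, a core protein that contacts the catalytic subunit, had 3.21 and 0.951 RPM in the extra cross, against 1.58 and 0.561 RPM in the original cross. Nhp2, a core protein that binds the RNA, had 0.642 and 0.951 RPM in the extra cross, against 4.74 and 0 RPM in the original cross. The other core protein measured, Gar1, had 0 and 0.238 RPM in the extra cross and 0 in both original-cross libraries. The assembly factors Naf1 and Shq1, Nolc1, the helicases Ruvbl1 and Ruvbl2, Smn1, and the Cajal body proteins Coil and Wrap53 each had a mean below 1 RPM. Dkc1, which encodes dyskerin, had no matched row. The 12 pseudouridine synthases that act without a guide RNA summed to 4.38 and 4.90 RPM in the extra cross, against 12.3 and 5.15 RPM in the original cross, with Trub2 the highest at 0.642 and 1.19 RPM in the extra cross, against 4.74 and 1.12 RPM in the original cross. None of the 3 genes of these lists that reached a mean of 1 RPM passed the test with that minimum.

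The small Cajal body RNAs, relatives that can carry the H/ACA fold and guide modification of spliceosomal RNA, were scarcer than the H/ACA snoRNAs. The 6 Scarna genes with a row summed to 7.06 and 3.09 RPM in the extra cross, against 11.1 and 7.85 RPM in the original cross, or 11 and 13 reads in the extra cross, against 7 and 14 reads in the original cross. Scarna10 had 3.21 and 1.43 RPM in the extra cross, against 6.32 and 4.49 RPM in the original cross, and Scarna13 had 2.57 and 0.713 RPM in the extra cross, against 3.16 and 1.68 RPM in the original cross. In Scarna10 both extra-cross libraries lay below both original-cross libraries, though 4 reads stood behind original-cross replicate 1. Scarna17 and Scarna3a had means below 1 RPM. Terc, the telomerase RNA, which ends in an H/ACA domain, had no matched row.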

How the data were processed

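Small RNA was sequenced from sperm of 4 mice, 2 per cross. The deposited values are RPM, the unit the authors named per the file headers, in 2 tables, 1 per replicate number, each with a column per cross and 6 classes of feature. CASAVA 1.8.2, Bowtie 1.1.2 and mm10 are listed, per the submitters' processing notes. The sources used here do not give the trimming, the total behind RPM or the rule for reads with several matches.

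RefSeq rows were matched to symbols (55917 of 68434 transcripts) and summed per gene. In original-cross replicate 1 the RefSeq values were multiplied by 26.2, taking 0.0603 RPM, seen 2347 times, as 1 read, while the commonest value was 0.0302 RPM, seen 2512 times. Of the members' 106 values above 0, 96 were whole reads within 0.02 reads, and in 29 of 34 members all values were whole. Whole reads were not recovered over all genes, so no count model was run. The RPM scale rests on 1557766 and 4205692 reads in the extra cross, against 632859 and 1782506 reads in the original cross.

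The test was limma 3.58.1 (R 4.3.3) with a variance trend on log2(RPM + 1), for genes with a mean of at least 10 RPM and cross as the only term. It was tested on simulated data. Single values per library were compared by exact permutation. Folds for the H box were predicted with RNAfold 2.7.2. Python 3.11.15, pandas 2.3.3, numpy 2.4.6, scipy 1.17.1 and matplotlib 3.10.9 were used. Named in the text are members past the threshold, the 12 with the highest mean, up to 5 tested members each way by p, the 2 nearest the 10 RPM minimum on each side, near-identical copies, 4 Scarna genes, Terc, the H/ACA protein genes and the 6 most abundant hosts, and other members were named after their values were seen. The members and the lists were chosen with earlier results of these data known. Snora74b was not analysed here. The alternatives tried were other minimums, pseudocounts, scalings and rescaling ratios, no variance trend, voom weights, the highest transcript per gene, a replicate block and leaving out each library. The host row added to Snora26 and Snora24 and the share without Snord2 were chosen after seeing the data.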

Additional observations from a re-analysis of the deposited data

How the results depend on the processing

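Across all alternatives that used the 4 libraries, 0 H/ACA snoRNAs and 0 RefSeq genes passed limma. With median-ratio scaling, 2 of 4 tested members had an unadjusted limma p below 0.05, as had 45 of 462 genes. With equal RefSeq sums, 2 of 4 tested members did, as did 51 of 470 genes. Leaving out 1 library gave 1 to 41 RefSeq genes and 0 to 2 members past the threshold, and a members' median of -0.18 to 1.48, where it was 1.48 without original-cross replicate 1. The median was 2.62 with no rescaling of that library's RefSeq values. The summed H/ACA level had a log2 difference of -0.29 with the larger rescaling ratio and of -0.31 to 0.72 with 1 library left out. It was 0.74 with median-ratio scaling and 0.63 with equal RefSeq sums. Leaving out 1 library gave -0.033 to 1.72 for Snora16a, -0.33 to 1.48 for Snora68 and, in the 2 of these fits where it reached the minimum, -0.68 and 1.06 for Snora26. The lowest of these values came without original-cross replicate 2. The cause was not tested. The H/ACA share of snoRNA kept its direction in all 7 alternatives, with -0.58 points when Snord2 was left out and differences of -3.38 to -0.50 percentage points with 1 library left out. Among these 7, the highest transcript per gene only repeated the main value of -1.94 points. Within replicate 2 alone the share went the other way, by 0.82 points. With a replicate block the summed level differed by 0.21 and 0 genes passed, 131 of them at an unadjusted p below 0.05. Deviations of same-numbered libraries correlated at 0.332 over 477 genes, but with 2 pairs the numbers are not known to mark pairs. Depth limits the rest: in original-cross replicate 1 a value of 0 allows levels as high as 4.74 RPM, taking 3 reads as the limit.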
